A study of Mus musculus with 58 samples.

Results

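A set of 9 genes that mark tissue near the prefrontal cortex was followed through 58 RNA-seq libraries of mouse prefrontal cortex. The genes were taken by name from the 18088 genes of the table: Cdhr1, Doc2g, Tbx21 and Eomes for olfactory bulb, Drd1, Drd2, Adora2a and Rgs9 for striatum, and Ttr for choroid plexus. All 9 members were found and all 9 passed the filter on low values (a mean value of at least 10). The rule is a list of names and uses no measured value, but the list was drawn up with earlier results of these data known. The libraries came from C57BL/6N mice at postnatal day 25 that were either heterozygous for Arid1b (HT), a gene for a subunit of a chromatin remodelling complex, or wild type (WT). Vehicle, fluoxetine or lithium had reached the pups through the mother's milk from postnatal day 3 to 24, and both sexes were taken. Each of the 12 groups of genotype, treatment and sex held 5 libraries, except HT vehicle females and WT vehicle males with 4 each. The labels name no Cre driver or transgene, and they give neither litter, dissection date nor batch. They also do not say that the libraries of a group are separate animals, so the p-values measure only the spread between these libraries.

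The olfactory bulb lies directly in front of the frontal cortex and the striatum directly beneath it, and the choroid plexus hangs in the ventricles. Mitral and tufted cells, the projection neurons of the olfactory bulb, express the photoreceptor and bulb cadherin Cdhr1, the C2-domain protein gene Doc2g and the T-box transcription factors Tbx21 (T-bet) and Eomes (Tbr2). Medium spiny neurons of the striatum express the dopamine receptor Drd1 in the direct pathway, the dopamine receptor Drd2 with the adenosine receptor Adora2a in the indirect pathway, and Rgs9, which speeds the shut-off of G protein signals. Ttr encodes transthyretin, the thyroid hormone carrier that choroid plexus epithelium secretes into cerebrospinal fluid. Cortex itself expresses some of these genes at a lower level, Drd1 in deep layers among them.

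The values were normalized read counts: whole reads divided by 1 size factor per library. Libraries held 23977609 to 36689430 reads. Arid1b fitted the labels, with 1935 to 2656 normalized reads over the 29 HT libraries and 2410 to 3186 over the 29 WT libraries, and within each treatment the ranges of the genotypes did not overlap except under lithium. The cortical label also had its markers, with the summed level of 14 projection neuron genes between 57841 and 92824 normalized reads and the vesicular glutamate transporter gene Slc17a7 never below 32706. A pair of libraries stood apart. HT lithium female replicate 4 held 3.74 normalized reads of Xist, the RNA of the inactive X chromosome, against 16830.5 to 28776.5 in the 28 other libraries labelled female, and 2.80 of the Y-linked Ddx3y, against 962.7 to 1837 in males. HT lithium male replicate 5 held markers of several brain regions and is described last. Counts and calls that rest on these libraries are followed by their value without them.

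The upstream windows of the 4 olfactory members are shown first because these 4 genes were high in the same libraries. They come from RefSeq on GRCm38.p6 and run 5′ to 3′ on the strand of the gene up to the transcription start, cut where the GENCODE gene begins earlier. Capitals mark CG dinucleotides.
Cdhr1: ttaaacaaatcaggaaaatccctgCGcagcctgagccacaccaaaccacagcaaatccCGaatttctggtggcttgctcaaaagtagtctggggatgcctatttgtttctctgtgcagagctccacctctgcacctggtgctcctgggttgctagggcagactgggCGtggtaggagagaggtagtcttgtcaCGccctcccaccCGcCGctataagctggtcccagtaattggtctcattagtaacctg
Doc2g: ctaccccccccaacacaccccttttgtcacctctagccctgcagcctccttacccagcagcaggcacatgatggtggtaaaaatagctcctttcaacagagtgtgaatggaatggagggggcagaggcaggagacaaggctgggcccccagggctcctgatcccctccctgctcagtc
Tbx21: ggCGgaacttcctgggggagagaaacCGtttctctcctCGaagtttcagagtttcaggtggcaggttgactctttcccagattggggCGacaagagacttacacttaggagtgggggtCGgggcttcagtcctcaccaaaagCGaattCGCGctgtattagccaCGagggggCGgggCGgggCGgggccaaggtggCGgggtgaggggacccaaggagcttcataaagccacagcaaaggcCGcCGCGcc
Eomes: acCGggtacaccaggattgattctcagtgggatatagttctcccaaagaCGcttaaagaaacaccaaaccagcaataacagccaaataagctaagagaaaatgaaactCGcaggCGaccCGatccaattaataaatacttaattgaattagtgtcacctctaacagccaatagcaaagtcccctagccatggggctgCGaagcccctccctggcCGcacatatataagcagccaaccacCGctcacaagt
The Cdhr1 window is chr14:37098348-37098597 on the minus strand, the Doc2g window chr19:4003135-4003312 on the plus strand, the Tbx21 window chr11:97115332-97115581 on the minus strand and the Eomes window chr9:118477939-118478188 on the plus strand. The 4 windows share little in composition. Tbx21 held 16 CG dinucleotides in 250 bases, Eomes 8, Cdhr1 6 and Doc2g 0 in its 178 bases, beside a median of 6 over 32851 RefSeq windows of 250 bases. The T-box half-site GGTGTGA, searched on both strands, was in none of the 7 members' windows that the table holds, and in 3.33% of all windows. The letters TATAAA, also on both strands, were in the Rgs9 window alone, beside 12.4% of all windows. The 2 motifs do not overlap.

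The olfactory members split the libraries into a low and a high set. Cdhr1 (ENSMUSG00000021803, chromosome 14, 37077857 to 37098347, GRCm38) ranged from 120.3 normalized reads in HT vehicle female replicate 4 to 4664 in HT fluoxetine female replicate 1, with a median of 588. A library was called raised for a gene at 3 times the median of the 58 libraries or more, and raised for olfactory bulb when at least 3 of the 4 genes were. By that rule 24 of 58 libraries were raised, 22 of them in all 4 genes. For each of the 4 genes every raised library lay above all others. The lowest Cdhr1 value in a raised library was 1574 and the highest in the other 34 was 969.2. Doc2g (ENSMUSG00000024871, chromosome 19, 4003313 to 4007005) had 885.7 as the lowest value among raised libraries and 519.9 as the highest among the others. Tbx21 (ENSMUSG00000001444, chromosome 11, 97098071 to 97115331) had 90.7 and 37.7 on either side. Eomes (ENSMUSG00000032446, chromosome 9, 118478212 to 118486132) had 235.9 and 138.6. The library just outside for all 4 genes was WT fluoxetine male replicate 4, above the threshold in Eomes alone, and the libraries just inside were WT lithium male replicate 2 and HT lithium female replicate 3, raised in 3 genes but not in Cdhr1, whose threshold was 1764. Because the same values define the sets, the gap is a description.

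**Figure D1:**
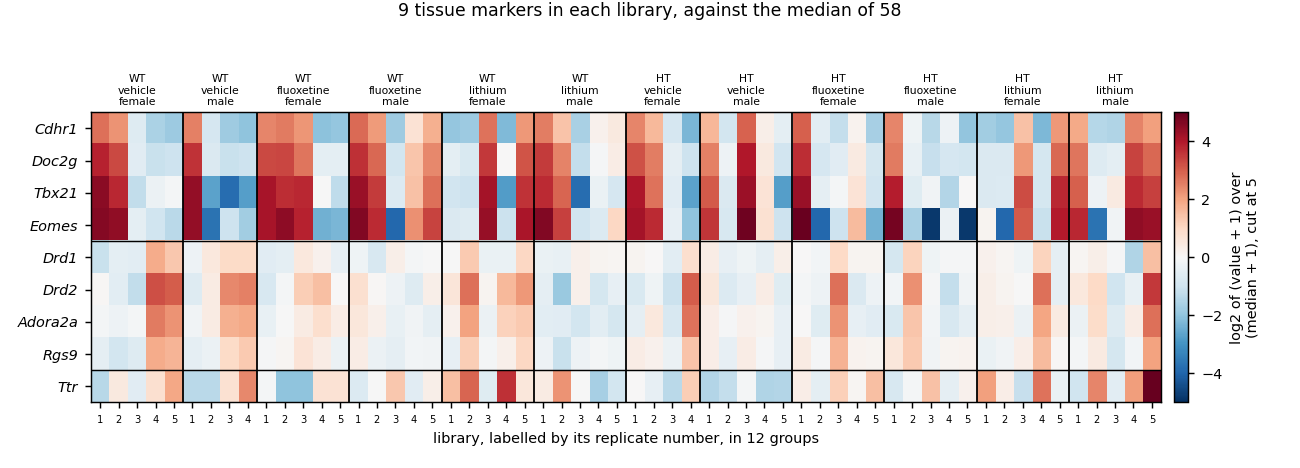
Each column is 1 of the 58 libraries, labelled by the replicate number of its title and ordered by group, and each row is 1 of the 9 markers. Colour gives the log2 of the value plus 1 over the median plus 1, limited to 5 either way. Red marks any value above the median of its row. In the 24 columns raised for olfactory bulb all 4 olfactory rows are red, and some further columns are red as well. The highest values of the striatal rows lie mostly in other columns.

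Cdhr1 is given library by library because all 12 groups held libraries of both sets. In WT vehicle females it was 3995, 2828, 377.6, 197.5 and 164.5 normalized reads in replicates 1 to 5, and in WT vehicle males 3336, 332.1, 170.7 and 146.0. WT fluoxetine females had 3202, 3603, 2729, 139.9 and 155.0, and WT fluoxetine males 4235, 2565, 171.5, 969.2 and 2002. WT lithium females had 152.4, 168.3, 3840, 126.9 and 2622, and WT lithium males 3447, 1574, 190.1, 673.9 and 825.2. So at least 1 and at most 3 libraries of each WT group were raised. In HT vehicle females the values were 3177, 1834, 324.0 and 120.3, and in HT vehicle males 1871, 310.1, 4559, 714.1 and 422.6. HT fluoxetine females had 4664, 408.0, 253.8, 668.5 and 184.4, and HT fluoxetine males 3193, 507.4, 227.2, 492.3 and 148.4. HT lithium females had 174.0, 153.2, 1604, 123.3 and 2664, and HT lithium males 2183, 216.0, 204.6, 3312 and 2434. Each HT group also held 1 to 3 raised libraries.

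**Figure D2:**
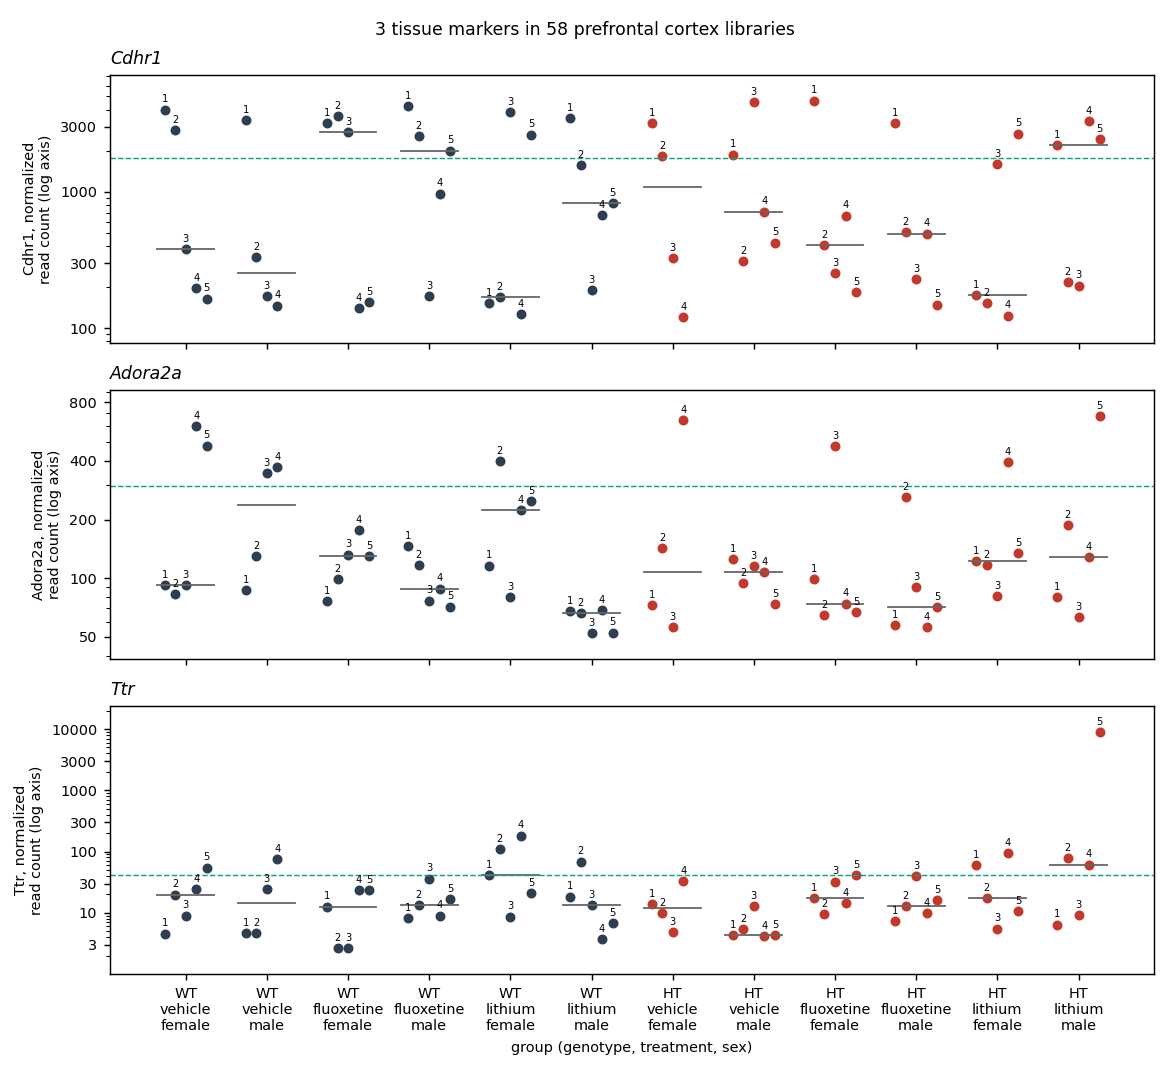
Normalized read counts of Cdhr1, Adora2a and Ttr on log axes for the 12 groups, with each point 1 library and its replicate number above it, WT in dark blue and HT in red. Grey lines are group medians and the green dashed line is 3 times the median of all libraries. Cdhr1 has high and low points in every group, Adora2a few high points and only in some groups, and Ttr 1 point at 9013.

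The spread that this gave was among the widest of any gene. The within-group SD of Eomes was 3.25 on the log2 scale, of Tbx21 2.62, and of Cdhr1 and Doc2g 2.0 each, beside a median of 0.170 over the 16632 genes tested. Among the striatal members it was 1.33 for Drd2, 0.97 for Adora2a, 0.75 for Rgs9 and 0.70 for Drd1, and it was 1.72 for Ttr. As percentiles of the genes tested the 9 ran from 97.6 for Drd1 to 99.96 for Eomes. In bulk tissue fewer cells of a type and less RNA per cell cannot be told apart.

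Raised olfactory markers gathered in the libraries numbered 1. By the replicate number of the title, 10 of 12 libraries numbered 1 were raised, 5 of 12 numbered 2, 4 of 12 numbered 3, 1 of 12 numbered 4 and 4 of 10 numbered 5. The 2 libraries numbered 1 that were not raised were HT lithium female and WT lithium female. In 4 libraries, the WT vehicle males, the number in the library name is 1 higher than in the title, and by the library name 9 of 11 numbered 1 were raised. In a fit of group and replicate number together, each number was set against the mean over the 5 numbers. Cdhr1 deviated by 1.52 (log2) for the libraries numbered 1 and by -0.94 for those numbered 4. Doc2g deviated by 1.69 and -0.90, Tbx21 by 2.23 and -1.31, and Eomes by 2.73 and -0.96. Replicate number, fitted after the group, took 20.2% of the whole spread of Cdhr1 and 23.1% of that of Doc2g. It took 23.2% for Tbx21 and 20.8% for Eomes, beside 5.98% for the median gene. The group itself took 7.64% (Cdhr1) to 12.5% (Tbx21) for these genes and 34.5% for the median gene, so the shares left after it differ.

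None of this passed the test over all genes. In limma's moderated F test for replicate number, adjusted over 16632 genes by the Benjamini-Hochberg method, 0 of 9 members passed, and neither did any other gene (percent called 0, with 2385 genes at an unadjusted p under 0.05). The limma adjusted p was 0.226 for Tbx21, 0.233 for Doc2g, 0.261 for Eomes and 0.296 for Cdhr1, and the 4 unadjusted values ran from 0.00958 to 0.0310. The 5 other members had unadjusted p-values of 0.153 (Adora2a) to 0.386 (Drd2). In the fit of group and number, Adora2a was lowest in the libraries numbered 1, at -0.44, and highest in those numbered 4, at 0.48. Whether a replicate number stands for a day, a litter or an order of dissection is not in the labels.

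**Figure D3:**
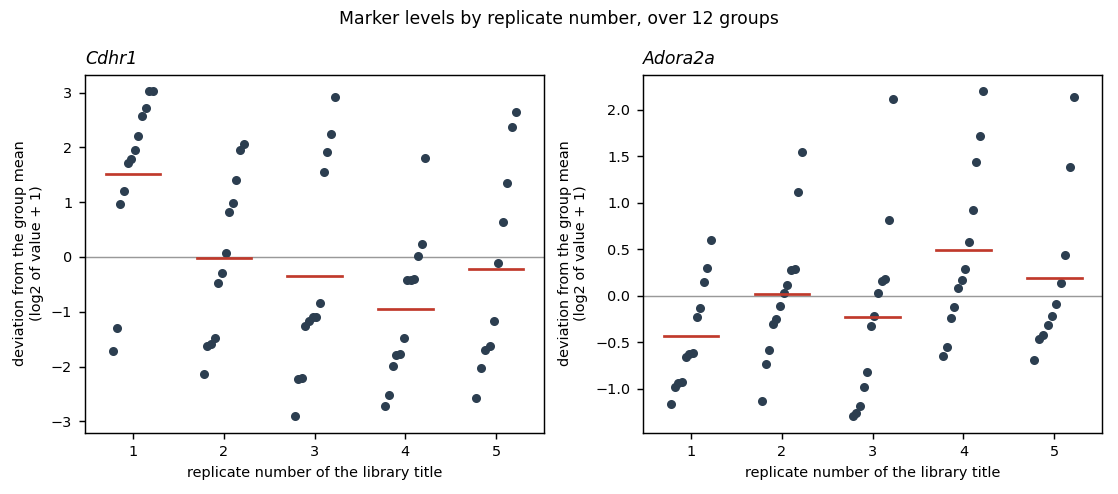
Deviation of Cdhr1 (left) and Adora2a (right) from the mean of the group, in log2 of the value plus 1, by the replicate number of the title. Points are libraries, sorted within a number, and red lines are the plain means of these deviations. In a fit of group and number together, the Cdhr1 terms were 1.52 for number 1 and -0.94 for number 4.

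The raised libraries were also counted by genotype and treatment. Of HT libraries 11 of 29 were raised for olfactory bulb and of WT libraries 13 of 29. By treatment the counts were 7 of 18 under vehicle, 8 of 20 under fluoxetine and 9 of 20 under lithium, and they were 12 of 29 in either sex. Within fluoxetine 6 of 10 WT and 2 of 10 HT libraries were raised. The order was the other way within vehicle, with 3 of 9 WT and 4 of 9 HT libraries. Within lithium it was 4 of 10 WT and 5 of 10 HT libraries, HT lithium male replicate 5 among the latter. Without the pair of libraries that stood apart 23 of 56 were raised, 10 of 27 HT and 13 of 29 WT, and 8 of 18 under lithium. No test was made of these counts.

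Within the raised set the olfactory members also followed each other, and in the other set some pairs did. Pairs of members were correlated within each set, since the libraries form separate sets. Group means were not removed there and the permutation ran over the whole set, so differences between groups enter these values. Over the 24 raised libraries Cdhr1 and Doc2g had a Pearson r of 0.91 and a Spearman rho of 0.93 (both permutation p = 1e-05, the smallest that 100000 resamples can give, adjusted p = 6e-05 and 7.2e-05 over 36 pairs). Cdhr1 and Tbx21 had r = 0.90 and rho = 0.87, and Cdhr1 and Eomes r = 0.91 and rho = 0.90, with the same permutation p-values. The lowest of the 6 olfactory pairs was Tbx21 with Eomes (r = 0.78, rho = 0.74, permutation p = 4e-05 and 8e-05, adjusted p = 0.000206 and 0.00048). Without the 2 libraries farthest from the median of the first gene, the 6 values of r ran from 0.76 to 0.91. Over the other 34 libraries the pairs were looser, from r = 0.68 for Cdhr1 with Doc2g (rho = 0.45, permutation p = 3e-05 and 0.00763, adjusted p = 0.000135 and 0.0172) to r = 0.16 for Tbx21 with Eomes (rho = 0.09, permutation p = 0.357 and 0.594, adjusted p = 0.428 and 0.607). Cdhr1 with Tbx21 missed the threshold after adjustment (r = 0.37, rho = 0.31, permutation p = 0.0318 and 0.0732, adjusted p = 0.0603 and 0.115). Without the 2 farthest libraries Cdhr1 and Doc2g kept r = 0.54, while Doc2g with Tbx21 went from r = 0.51 to 0.34 (permutation p = 0.0548) and Cdhr1 with Tbx21 to 0.28 (permutation p = 0.115). Left out alone, HT fluoxetine female replicate 4, HT vehicle female replicate 4, HT vehicle male replicate 4, WT fluoxetine male replicate 4, WT lithium female replicate 4 and WT vehicle male replicate 4 each took the permutation p of Cdhr1 with Tbx21 above 0.05, with r from 0.27 to 0.34. Tbx21 had at most 37.7 normalized reads in these libraries.

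**Figure D4:**
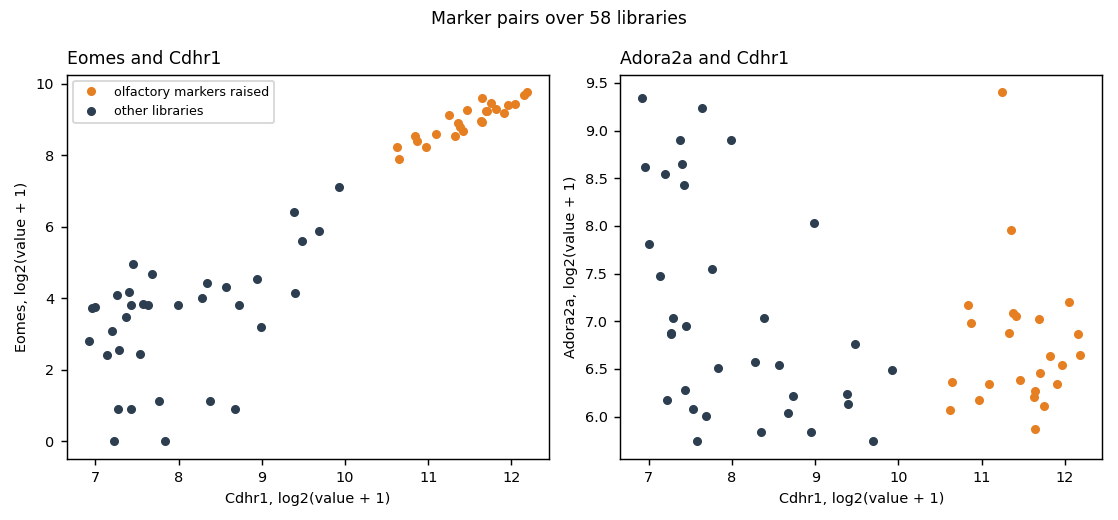
Eomes (left) and Adora2a (right) against Cdhr1, all in log2 of the value plus 1, with each point 1 of 58 libraries. Orange points are the 24 libraries raised for olfactory markers, where Eomes climbs with Cdhr1 (r = 0.91), and the highest Adora2a points lie mostly at low Cdhr1.

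Many other genes moved with the olfactory signal. In a limma fit of each gene on the log2 level of Cdhr1 with the group in the model, 2840 genes were higher with Cdhr1 (percent called 17.1) and 3089 lower (percent called 18.6), so that percent called was 35.7 in either direction. The 8 genes most like Cdhr1, by Pearson r of the deviations from the group means over 58 libraries, were Cacng5 (0.983), Calb2 (0.983), Pbx3 (0.976), Ptpro (0.9746), Sp8 (0.974), Frmd7 (0.974), Dlx1 (0.973) and Gng4 (0.972). These values span both sets of libraries, so the gap between the sets enters them. Within the sets r was lower, from 0.738 (Pbx3) to 0.908 (Ptpro) over the 24 raised libraries and from 0.757 (Calb2) to 0.874 (Cacng5) over the 34 others. Calb2, the calretinin gene of bulb interneurons, ran from 283.8 to 4805 normalized reads over the libraries. Sp8, a transcription factor of bulb interneurons, ran from 48.3 to 904.6.

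Lists of other genes were read in the same fit. All 6 further projection neuron genes tested were higher with Cdhr1, with a median slope of 0.77 (log2 per log2 of Cdhr1) beside -0.0033 over all genes. Among them were Slc17a6, the vesicular glutamate transporter of subcortical and bulb neurons (slope 0.13, limma adjusted p = 2.52e-12), Shisa3 (0.97, limma adjusted p = 1.76e-23) and the neuropeptide gene Nmb (0.64, limma adjusted p = 1.62e-19). All 19 genes of bulb interneurons and migrating neuroblasts were higher as well, with a median slope of 0.40, among them the transcription factor genes Meis2 and Tshz1, Synpr and Gng4. Of the 5 genes of the olfactory nerve layer 4 were higher, including Omp, the marker protein gene of olfactory sensory axons, at 4.62 to 368.6 normalized reads. Of 23 further striatal genes 5 were higher and 5 lower with Cdhr1, with a median slope of -0.014. Of 14 cortical projection neuron genes 10 were lower and 2 higher with Cdhr1. Slc17a7 had a slope of -0.04 (limma adjusted p = 0.00122), Cux2 of upper layers -0.04 (limma adjusted p = 1.86e-05) and Tbr1 of deep layers -0.05 (limma adjusted p = 0.00379). Of 10 oligodendrocyte genes 9 were lower, Mbp with a slope of -0.14 (limma adjusted p = 0.00478). Of 12 genes of meninges and fibroblasts 8 were higher with Cdhr1, including Igf2 (0.09, limma adjusted p = 1.99e-05). Their part in the olfactory pattern was not tested.

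The striatal members were high in few libraries, and mostly not in the olfactory ones. Drd1 (ENSMUSG00000021478, chromosome 13, 54051183 to 54055705) ranged from 62.0 to 639.6 normalized reads with a median of 175.8. Drd2 (ENSMUSG00000032259, chromosome 9, 49340627 to 49408177) ranged from 8.04 to 380.2 with a median of 31.7. Adora2a (ENSMUSG00000020178, chromosome 10, 75316877 to 75334784) ranged from 52.6 to 677.1 with a median of 98.8, and Rgs9 (ENSMUSG00000020599, chromosome 11, 109225355 to 109298129) from 161.7 to 1426 with a median of 349.2. By the 3-of-4 rule 5 libraries were raised: WT vehicle female replicates 4 and 5, HT fluoxetine female replicate 3, HT lithium female replicate 4 and HT lithium male replicate 5. Only WT vehicle female replicate 4 was raised in all 4 genes.

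In WT vehicle female replicate 4 Drd1 stood at 639.6, Drd2 at 303.8, Adora2a at 602.0 and Rgs9 at 1275 normalized reads. In replicate 5 of the same group they stood at 454.8, 262.5, 478.8 and 1131, while Cdhr1 was low in both. HT fluoxetine female replicate 3 had 350.7, 216.9, 476.3 and 1161. Because the rule asks for at least 3 of the 4 genes, their being high together in these libraries is a description. HT lithium female replicate 4, just inside the rule, had 385.7 for Drd1, 220.4 for Drd2, 393.2 for Adora2a and 1050.6 for Rgs9, whose threshold was 1047.5. HT vehicle female replicate 4, just outside, had 314.4, 265.6, 649.1 and 944.5. WT vehicle male replicates 3 and 4 and WT lithium female replicate 2 were likewise raised in 2 of the 4 genes. A graded series rather than a gap separated raised libraries from others: at 2 times the median 10 libraries were raised, and at 5 times 0.

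At 3 times the median the raised striatal libraries carried the numbers 3 (1 of 12), 4 (2 of 12) and 5 (2 of 10), with 0 of 12 each for numbers 1 and 2. They were 3 of 29 HT and 2 of 29 WT libraries, 2 of 18 under vehicle, 1 of 20 under fluoxetine and 2 of 20 under lithium, and 4 of 29 in females against 1 of 29 in males. These counts move with the threshold and with the libraries that stood apart. At 2 times the median, numbers 1 to 5 held 0, 2, 1, 4 and 3 raised libraries, HT fluoxetine male replicate 2 and WT lithium female replicate 2 being the pair numbered 2, and females held 7 of 29 against 3 of 29 in males. Without HT lithium female replicate 4 and HT lithium male replicate 5, 3 of 56 libraries were raised at 3 times the median: 1 of 27 HT and 2 of 29 WT, 2 of 18 under vehicle, 1 of 20 under fluoxetine and 0 of 18 under lithium, all 3 of them female. Of the 58 libraries, 25 were raised for none of the 3 tissues at 3 times the median, with choroid plexus read from Ttr alone. That count was 18 at 2 times the median, and 23 of 56 without the pair of libraries that stood apart. HT lithium male replicate 5 was the 1 library raised for both olfactory bulb and striatum at 3 times the median. WT lithium female replicate 5, raised for olfactory bulb, had Drd2 alone above its threshold, at 145.6.

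Over the 34 libraries not raised for olfactory bulb, all 6 striatal pairs were correlated. Drd2 and Adora2a of the indirect pathway had r = 0.95 and rho = 0.87 (both permutation p = 1e-05, adjusted p = 6e-05 and 9e-05), and Drd1 and Adora2a, the loosest pair, r = 0.79 and rho = 0.61 (permutation p = 1e-05 and 0.00022, adjusted p = 6e-05 and 0.00099). Without the 2 farthest libraries r was 0.94 and 0.73. Over the 24 olfactory-raised libraries Drd2 and Adora2a had r = 0.83 and rho = 0.50 (permutation p = 8e-05 and 0.0125, adjusted p = 0.00036 and 0.052). The r fell to 0.44 without the 2 farthest libraries (permutation p = 0.0406), so its size rests in part on those. Drd2 with Rgs9 went from r = 0.82 to 0.58 (permutation p = 0.00533). Other striatal pairs missed 0.05 without the 2 farthest. Drd1 went from r = 0.72 to 0.34 with Drd2 and from 0.64 to 0.10 with Adora2a (permutation p = 0.116 and 0.65). Drd1 with Rgs9 went from r = 0.69 to 0.38 and Adora2a with Rgs9 from 0.74 to 0.34 (permutation p = 0.0774 and 0.123). Cdhr1 ran against Drd2 over the 34 libraries (r = -0.52, rho = -0.59, permutation p = 0.00196 and 0.0003, adjusted p = 0.00543 and 0.0012, r = -0.49 without the 2 farthest) and against Adora2a (r = -0.49, rho = -0.51, permutation p = 0.00387 and 0.00214, adjusted p = 0.00871 and 0.00626, r = -0.45). Cdhr1 with Drd1 and Cdhr1 with Rgs9 did not pass there (both r = -0.31, both permutation adjusted p = 0.118). The cross-tissue pair with the highest absolute r over the 34 libraries was Cdhr1 with Ttr (r = -0.72, rho = -0.73, permutation p = 2e-05 and 1e-05, adjusted p = 0.000103 and 9e-05, r = -0.73 without the 2 farthest and -0.71 without HT lithium female replicate 4). Ttr followed the striatal members there, with r = 0.63 for Drd2 (rho = 0.65, permutation p = 8e-05 and 7e-05, adjusted p = 0.000288 and 0.00048), 0.60 for Adora2a (rho = 0.58, permutation p = 0.00028 and 0.0005, adjusted p = 0.000916 and 0.0018), 0.50 for Rgs9 and 0.42 for Drd1. In the 24 olfactory-raised libraries the pairs of Ttr did not pass after adjustment: Cdhr1 with Ttr had r = -0.14 and rho = -0.11 (permutation p = 0.53 and 0.608, adjusted p = 0.855 and 0.876), and Adora2a with Ttr r = 0.66 and rho = -0.0043 (permutation p = 0.0236 and 0.985, adjusted p = 0.0654 and 0.985), which became -0.19 without the 2 farthest libraries. Drd2 with Ttr likewise went from r = 0.47 (rho = -0.22, permutation p = 0.0498 and 0.305, adjusted p = 0.128 and 0.645) to -0.64, so its sign rests on those libraries. Over the 24 raised libraries Cdhr1 and Adora2a had r = -0.05 and rho = 0.01 (permutation p = 0.805 and 0.945, adjusted p = 0.923 and 0.985). With group means removed over all 58 libraries, where the gap between the sets enters, Cdhr1 had r = -0.31 with Ttr. It had -0.32 with Drd2 and -0.30 with Adora2a (permutation adjusted p = 0.0538, 0.0538 and 0.0714). Their rho was -0.47, -0.35 and -0.29 (permutation adjusted p = 0.00301, 0.0290 and 0.0725). Cdhr1 had r = -0.41 with Drd1 and -0.12 with Rgs9 over the 58 libraries (permutation adjusted p = 0.0146 and 0.454). Ttr had r = 0.53 with Drd2 and 0.62 with Adora2a there (permutation adjusted p = 0.00111 and 2.77e-05).

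Genes that moved with Adora2a were fewer and rested more on single libraries. The slope test called 1598 genes higher (percent called 9.61) and 1781 lower (percent called 10.7), 3379 in all (percent called 20.3). Without HT lithium male replicate 5 it called 2157, and without the 2 libraries farthest from the median of Adora2a 1279. The genes most like it were Sh3rf2 (r = 0.888), Six3 (0.847), Syndig1l (0.832), Ppp1r1b (0.823), Adcy5 (0.814), Cd4 (0.813), Dach1 (0.802) and Lrrc10b (0.800) over 58 libraries. Ppp1r1b encodes DARPP-32, the phosphoprotein of medium spiny neurons, and ran from 649.9 to 4595 normalized reads. Of 23 further striatal genes tested 16 were higher with Adora2a and 0 lower, with a median slope of 0.29 beside -0.0023 over all genes. Examples are the phosphodiesterase gene Pde10a (slope 0.33, limma adjusted p = 4e-07), the adenylyl cyclase gene Adcy5 (0.21, limma adjusted p = 1.11e-09) and Gng7 (0.25, limma adjusted p = 7.87e-06). Gnal, the olfactory-type G protein of striatum, did not pass (0.02, limma adjusted p = 0.58). Without the pair of libraries that stood apart 15 of the 23 were higher. All 10 oligodendrocyte genes were higher with Adora2a, Mbp with a slope of 0.42 (limma adjusted p = 3.57e-06), and their summed level ran from 36174 to 227942 normalized reads. Their part in the striatal pattern was not tested. Of the 4 cholinergic genes 3 were higher (2 without the pair that stood apart), among them Chat, which makes acetylcholine (0.57, limma adjusted p = 0.000212).

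Ttr (ENSMUSG00000061808, chromosome 18, 20665280 to 20674321) was low in most libraries. It ranged from 2.63 to 9013 normalized reads with a median of 13.7, and its second highest value was 182.0, in WT lithium female replicate 4. A level of 3 times the median (41.0) was reached in 10 of 58 libraries, 8 of 20 under lithium, 2 of 18 under vehicle and 0 of 20 under fluoxetine. By genotype they were 5 of 29 each. The nearest library inside was WT vehicle female replicate 5 at 54.5, and the nearest outside was HT fluoxetine female replicate 5 at 40.99. With 2 times the median 16 libraries were raised and with 5 times 6. By title number they were 1 of 12, 3 of 12, 0 of 12, 4 of 12 and 2 of 10 from number 1 to number 5. Of the 10, 3 were also raised for olfactory bulb and 3 for striatum. Without HT lithium female replicate 4 and HT lithium male replicate 5, with the median taken over the 56 libraries left, 10 were raised: 7 of 18 under lithium, 2 of 18 under vehicle and 1 of 20 under fluoxetine, with 4 of 27 HT and 6 of 29 WT.

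Ttr was the 1 member that passed a test between groups in limma's fit of all libraries. In HT vehicle libraries it was at 4.15 at the lowest, 5.40 at the median and 33.3 at the highest (n = 9), and in HT lithium libraries at 5.53, 38.5 and 9013 (n = 10). The groups overlapped, 1 lithium library far above the rest. HT lithium females had 59.7, 17.4, 5.53, 95.3 and 10.6 normalized reads in replicates 1 to 5, and HT lithium males 6.40, 79.1, 9.16, 61.1 and 9013. HT vehicle females had 13.9, 9.97, 4.80 and 33.3, and HT vehicle males 4.36, 5.40, 12.8, 4.15 and 4.32. High lithium values thus came from both sexes, and HT lithium male replicate 5 alone was above 100. The difference on the log2 scale was 2.22 ± 0.78 (SE, 95% interval 0.65 to 3.79, limma adjusted p = 0.0335). Ttr was the 1 of 9 members called for lithium in HT mice, where percent called was 23.2. Without HT lithium male replicate 5 the difference was 1.37 (limma adjusted p = 0.111), and without that library and HT lithium female replicate 4 it was 1.12 (limma adjusted p = 0.211), so the call did not hold. It was also lost without HT lithium female replicate 1 or 4, HT vehicle female replicate 2 or 3 or HT vehicle male replicate 5, each left out alone, with differences of 1.97 to 2.18. With library weights the limma adjusted p was 0.0518, with a correction for GC content and length 0.0643 and with only the groups compared 0.148, while edgeR kept the call (4.75, adjusted p = 0.000485). That edgeR fit included HT lithium male replicate 5, at 9013 normalized reads, and edgeR was not run without it. In WT mice lithium gave 0.62 ± 0.78 (SE, 95% interval -0.95 to 2.20, limma adjusted p = 0.647), with 8 WT lithium libraries between 3.68 and 68.3 and 2 at 108.2 and 182.0. The difference between the genotypes in the lithium effect was 1.60 ± 1.11 (SE, 95% interval -0.63 to 3.82, limma adjusted p = 0.939).

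Other choroid plexus genes were read beside Ttr. Of 14 further list genes 10 were tested, and 6 of them were higher with Ttr and 0 lower, where percent called was 8.08 for higher, 8.87 for lower and 17 for either. That count rested on the libraries that stood apart: without HT lithium female replicate 4 and HT lithium male replicate 5, 0 of 10 choroid genes were higher and 0 lower in limma. Genes of other lists moved with Ttr as well. Of 10 oligodendrocyte genes 9 were higher, with a median slope of 0.17 beside 0.08 for the choroid genes, and Mbp had a slope of 0.18 (limma adjusted p = 0.0048). The count of oligodendrocyte genes was also 9 of 10 without those libraries, with a median slope of 0.19. Of 23 striatal genes 11 were higher and 0 lower with Ttr, and 4 were higher and 2 lower without those libraries. Their part in the Ttr pattern was not tested. In HT lithium male replicate 5, 10 of 15 measured choroid genes were at their highest. There the folate receptor gene Folr1 stood at 38.1 normalized reads against at most 12.7 in the 57 other libraries, the klotho gene Kl at 247.7 against 85.2, Clic6 at 281.8 against 44.0 and the transcription factor gene Otx2 at 142.1 against 11.8. Each of these exceeded all other libraries. The 8 genes most like Ttr were Car8 (r = 0.771), Epb41 (0.765), Gm2694 (0.739), Lurap1 (0.726), Pxn (0.711), Ptpn22 (0.707), Fnbp1 (0.707) and Pcsk6 (0.694) over 58 libraries. Without the 2 farthest libraries Car8 had r = 0.559 and Epb41 0.598. Without the pair that stood apart, r of the 8 genes ran from 0.525 (Ptpn22) to 0.616 (Car8). Over the 24 libraries raised for olfactory bulb it ran from 0.515 (Pcsk6) to 0.864 (Car8). Over the 34 others it ran from 0.388 (Ptpn22) to 0.731 (Epb41), with Car8 at 0.397. None of these 8 genes is on the choroid list.

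HT lithium male replicate 5 held all 3 signals. Cdhr1 was 2434, Doc2g 1428, Tbx21 147.6 and Eomes 565.2 normalized reads there, within the range of the other raised libraries. Drd2 (380.2), Adora2a (677.1) and Rgs9 (1426) were the highest of all 58 libraries, and Drd1 was 503.3. Ttr was 49.5-fold above the next library. Genes of the cerebellum were also high, though of the 4 on the fixed list only Cbln3 was measured. Cbln3, the cerebellin gene of granule cells, stood at 4549 against at most 24.5 elsewhere, the granule cell protocadherin gene Fat2 at 4122 against 39.7, and the hindbrain homeobox gene En2 at 501.7 against 12.7. Fat2 and En2 were chosen after their values were seen. 

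Between genotypes the members did not pass. For HT minus WT under vehicle, where percent called was 0.0481, 0 of 9 members were called by limma (8 of 16632 genes were). The log2 differences of the olfactory members were 0.63 ± 0.95 for Cdhr1 (SE, 95% interval -1.28 to 2.54, limma adjusted p = 0.971), 0.58 ± 0.95 for Doc2g, 0.85 ± 1.24 for Tbx21 and 1.06 ± 1.54 for Eomes. In edgeR the sign of Tbx21 turned (-0.059). Of the striatal members Drd2 had -0.99 ± 0.62 (SE, 95% interval -2.25 to 0.26, limma adjusted p = 0.836), Adora2a -0.66 ± 0.46, Drd1 -0.36 ± 0.33 and Rgs9 -0.15 ± 0.35, and Ttr had -0.82 ± 0.81. The intervals are wide, and they reach beyond a 2-fold difference either way for each olfactory member. HT vehicle libraries ran from 120.3 over a median of 714.1 to 4559 normalized reads of Cdhr1 (n = 9) and WT vehicle libraries from 146.0 over 332.1 to 3995 (n = 9), overlapping almost fully. Over all treatments, where percent called was 4.74, 0 of 9 passed in limma, and the difference of Cdhr1 was -0.17 ± 0.53 (SE, 95% interval -1.23 to 0.89, limma adjusted p = 0.909), of Eomes -0.58 ± 0.85 and of Rgs9 0.18 ± 0.20.

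Fluoxetine passed for no member in limma. In WT mice (0 of 9, percent called 38.6) Cdhr1 differed from vehicle by 1.06 ± 0.92 (SE, 95% interval -0.79 to 2.91, limma adjusted p = 0.381), Doc2g by 1.23 ± 0.92, Tbx21 by 2.12 ± 1.20 (limma adjusted p = 0.163) and Eomes by 1.43 ± 1.49. Drd1 differed by -0.53 ± 0.32, Drd2 by -0.83 ± 0.61 and Adora2a by -0.82 ± 0.44 (limma adjusted p = 0.141). WT vehicle libraries had 82.6, 130.2 and 602.0 normalized reads of Adora2a at the lowest, median and highest (n = 9), and WT fluoxetine libraries 71.5, 107.7 and 176.4 (n = 10). When libraries were weighted by their fit to the group means, 7 of 9 members passed in WT mice, all but Rgs9 and Ttr, beside 8616 of 16632 genes. In edgeR Adora2a passed (-1.19, adjusted p = 0.0432). Without WT vehicle male replicate 1, Tbx21 also passed (3.05, limma adjusted p = 0.0392). In HT mice (0 of 9, percent called 36) Cdhr1 differed by -0.63 ± 0.92, Eomes by -2.17 ± 1.49 (limma adjusted p = 0.265) and Ttr by 0.93 ± 0.78. With library weights Eomes passed in HT mice (-3.33, limma adjusted p = 0.0335). The difference between genotypes in the fluoxetine effect passed for 0 of 9 members (percent called 0, with 1380 genes at an unadjusted p under 0.05 in limma), with -1.69 ± 1.302 for Cdhr1 and -3.60 ± 2.11 for Eomes. The vehicle libraries are shared by the fluoxetine and lithium comparisons.

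Lithium in WT mice passed for 0 of 9 members (percent called 11), with 0.36 ± 0.92 for Cdhr1 and -0.83 ± 0.44 for Adora2a (SE, 95% interval -1.72 to 0.06, limma adjusted p = 0.219). With library weights Adora2a passed (-1.001, limma adjusted p = 0.0469). Lithium by genotype (percent called 0, with 979 genes at an unadjusted p under 0.05 in limma), lithium by sex (percent called 25.2), fluoxetine by sex (percent called 0, with 744 genes at an unadjusted p under 0.05 in limma) and sex over all groups (percent called 15.9) each passed for 0 of 9 members as well. Of the further striatal genes 4 of 23 were called for lithium by sex in limma, Tac1 higher (0.47) and Adcy5 (-0.49), Rasd2 (-0.70) and Chrm4 (-0.51) lower. Without the pair of libraries that stood apart 2 were higher and 3 lower, where percent called was 28.4.

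**Figure D5:**
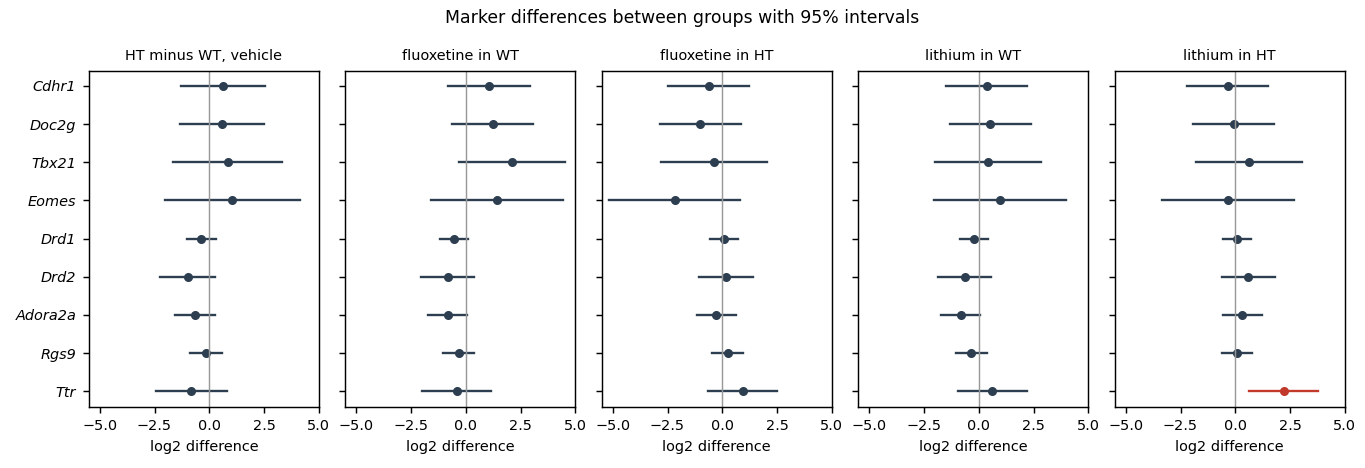
Log2 differences of the 9 markers with 95% intervals for HT minus WT under vehicle and for each drug against vehicle in each genotype, from the limma fit. Dots are estimates, lines are intervals, and red marks an adjusted p under 0.05, which is Ttr under lithium in HT alone. The Eomes interval is the widest in each panel.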

How the data were processed

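RNA of mouse prefrontal cortex had been sequenced from TruSeq Stranded mRNA libraries. The authors used Salmon 0.11.2, R 3.6.0 and DESeq2 1.19.11 with GRCm38, per the submitters' processing notes. The deposited signal values proved to be whole reads divided by 1 size factor per library (100% of values within 0.001 of whole reads), and 0 columns lacked a sample. Library totals of 23977609 to 36689430 reads set the counting precision.

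Ensembl IDs were matched to symbols, with 11 genes unmatched. Tests used limma 3.58.1 (trended, robust) on log2(value + 1) of 16632 genes with a mean of at least 10, with 12 group means in 1 fit and Benjamini-Hochberg adjustment per comparison at 0.05. Fold changes of low genes are understated by the pseudocount. edgeR 4.0.16 on the recovered reads of 17991 genes was an alternative, beside TMM and quantile scaling, a pseudocount of 5, no filter, library weights, a correction for GC content and length, replicate blocks and each library left out. On simulated data with 200 genes changed 2-fold, the fit recovered 93.5% for genotype under vehicle and 92.5% for lithium in HT. The changed genes were drawn from those with an edgeR dispersion under 1, and genes were simulated independently. The share was not computed for the members, whose within-group spread was among the widest, so it does not say what could be recovered for them. Marker pairs were planned as pooled deviations from group means. Since the olfactory markers form separate sets of libraries, they were correlated within each set instead, with group means left in and permutation over the whole set. The genes most like a marker were still chosen over all libraries.

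The members and the 15 marker lists were chosen with earlier results of these data known. The other named genes are the 8 most correlated with Cdhr1, Adora2a and Ttr and the most abundant genes of each list. Over all numbers, deviations of same-numbered libraries of different groups had a median r of 0.02 (116 of 309 pairs over 0.1). Libraries numbered 1 stood higher (median r = 0.15, 40 of 66 pairs over 0.1, 10 of 12 libraries closest to their own number). Since not every pair was over 0.1 for any number, numbers were not taken as pairs.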

Additional observations from a re-analysis of the deposited data

Results flagged for a closer look

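In 12 of 108 sets of 4 or 5 libraries, 1 library stood apart from the rest of its group for a member, on the log2 scale and by Dixon's test. Chance flags about 1 in 20 such sets, or 5.40 of 108. Doc2g stood apart in HT fluoxetine male replicate 1 (1195 normalized reads) and in WT vehicle male replicate 1 (2435). Tbx21 stood apart in the same libraries, at 210.1 and 291.4. Both libraries are numbered 1 by title, though the WT one is numbered 2 by its library name, and both are raised for olfactory bulb. Eomes stood apart on the low side in WT fluoxetine male replicate 3, at 0.86.

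HT fluoxetine female replicate 3 stood apart for all 4 striatal members, with Drd1 at 350.7, Drd2 at 216.9, Adora2a at 476.3 and Rgs9 at 1161 normalized reads. Drd2 stood apart in HT lithium female replicate 4, at 220.4, the library whose Xist level goes against its label. Rgs9 stood apart on the low side in WT lithium male replicate 2, at 161.7. Ttr stood apart in HT vehicle male replicate 3, at 12.8, beside 4.15 to 5.40 in the 4 others. Ttr in HT lithium male replicate 5, at 9013 beside 6.40 to 79.1, did not stand apart by this test.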

How the results depend on the processing

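The count of members called was 0 under every setting run for genotype, sex and the interactions. Library weights moved it to 7 for fluoxetine in WT, 1 for fluoxetine in HT and 1 for lithium in WT, and edgeR gave 1 for fluoxetine in WT. With weights, fluoxetine in WT gave 2.21 for Cdhr1, 2.32 for Doc2g, 3.62 for Tbx21, 3.08 for Eomes, -0.71 for Drd1, -1.24 for Drd2 and -1.13 for Adora2a. For lithium in HT the count was 0 with library weights, with the GC content and length correction, with only the groups compared and without both libraries that stood apart, an alternative chosen after seeing the data. Ttr then had 1.75, 2.35, 2.22 and 1.12, and the limma adjusted p over its alternatives ran from 0.0335 to 0.211 beside 0.000485 in edgeR (4.75). The edgeR fit was run only with HT lithium male replicate 5 included. Leaving out 1 library at a time, the count ran from 0 to 1 for lithium in HT and for fluoxetine in WT. For fluoxetine in WT it was 1 without WT vehicle male replicate 1, where Tbx21 passed. For lithium in HT it was 0 without HT lithium female replicate 1 or 4, HT lithium male replicate 5, HT vehicle female replicate 2 or 3 or HT vehicle male replicate 5.

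Of 99 member differences with a sign, 36 changed sign under at least 1 setting. None of the 36 was called in limma's fit of all libraries (lowest adjusted p = 0.518), nor under a setting that changed the sign (lowest adjusted p = 0.593), so no direction is read from them. In edgeR the sign changed for genotype under vehicle in Tbx21 (-0.059), for genotype over all treatments in Tbx21 (-0.34), Drd2 (0.018) and Adora2a (0.091), and for lithium in Tbx21 (-0.037 in HT, -0.26 in WT). It also changed in edgeR for fluoxetine by sex in Cdhr1 (-0.0033), Doc2g (-0.28), Drd1 (0.058), Drd2 (0.43) and Adora2a (0.26), for lithium by sex in Adora2a (0.0080) and Rgs9 (0.056), and for sex over all groups in Cdhr1 (-0.0043), Doc2g (-0.088), Eomes (0.025) and Ttr (0.49). With library weights it changed for genotype over all treatments in Ttr (-0.11), for lithium in HT and by genotype in Tbx21 (-0.0036 and -0.74), for fluoxetine by sex in Rgs9 (-0.22), for lithium by sex in Ttr (-0.53) and for sex over all groups in Cdhr1 (-0.045) and Doc2g (-0.34). Without both libraries that stood apart it changed for genotype over all treatments in Ttr (-0.21), for lithium in HT in Drd1 (-0.21), Drd2 (-0.034), Adora2a (-0.14) and Rgs9 (-0.29), and for sex over all groups in Doc2g (-0.11). A pseudocount of 5 changed it for genotype over all treatments in Tbx21 (-0.096), and the GC content and length correction for fluoxetine by sex in Rgs9 (-0.010). With the replicate block by library name it changed for genotype over all treatments in Tbx21 (-0.025), for fluoxetine by sex in Doc2g (-0.084) and for sex over all groups in Eomes (0.0036).

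With 1 library left out the sign changed 169 times. Genotype ran from -0.32 to 0.043 for Rgs9 under vehicle, and over all treatments from -0.099 to 0.39 for Tbx21, -0.11 to 0.023 for Drd1 and -0.12 to 0.31 for Ttr. Fluoxetine in HT ran from -0.97 to 0.15 for Tbx21, -0.054 to 0.21 for Drd1, -0.14 to 0.64 for Drd2 and -0.54 to 0.090 for Adora2a. Lithium in HT ran from -0.77 to 0.016 for Cdhr1, -0.41 to 0.29 for Doc2g, -0.90 to 0.34 for Eomes, -0.084 to 0.29 for Drd1 and -0.13 to 0.26 for Rgs9. Lithium in WT ran from -0.0069 to 0.86 for Cdhr1 and -0.027 to 1.35 for Tbx21, and lithium by genotype from -0.74 to 0.72 for Tbx21. Fluoxetine by sex ran from -0.11 to 0.76 for Cdhr1, -0.22 to 0.73 for Doc2g, -0.31 to 1.28 for Eomes, -0.63 to 0.14 for Drd2, -0.48 to 0.15 for Adora2a and -0.18 to 0.17 for Rgs9. Lithium by sex ran from -0.20 to 1.08 for Ttr, and sex over all groups from -0.18 to 0.14 for Doc2g, -0.40 to 0.12 for Eomes and -0.43 to 0.0017 for Ttr.

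Genes that follow Adora2a numbered 1279 without the 2 farthest libraries, 1828 without both libraries that stood apart, and 2157 to 3955 with 1 library left out. Those that follow Ttr numbered 1790 without the 2 farthest libraries and 1852 to 3487 with 1 left out, the lowest without HT lithium male replicate 1. Striatal-raised libraries numbered 10 at 2 times the median, 0 at 5 times, 1 when all 4 members were needed and 3 without both libraries that stood apart. Ttr-raised libraries numbered 16 and 6. Olfactory-raised libraries numbered 22 to 25 under these settings. With the replicate block, Ttr for lithium in HT was 2.12 (limma adjusted p = 0.0409), and the block changed no call of a member. The causes of these shifts were not tested.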
